A study of Mus musculus with 8 samples.

Results

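The clustered histone genes were taken as every gene in the deposited tables whose symbol begins with Hist1h, Hist2h, Hist3h or Hist4h. The rule found 67 genes among 31054 features. They comprised 6 genes of the linker histone H1 and 61 core genes, namely 18 of H2A, 18 of H2B, 12 of H3 and 13 of H4. In the GENCODE M21 annotation of GRCm38, 54 of them lie on chromosome 13, 10 on chromosome 3, 2 on chromosome 11 and 1 on chromosome 6.

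Core histones form the octamer around which DNA is wrapped, and H1 binds the DNA that enters and leaves it. Most genes of the clusters are transcribed in S phase, when new DNA must be packaged, and their mRNA ends in a conserved stem-loop in place of a poly(A) tail. Some members also give polyadenylated transcripts, mainly in cells that have left the cycle. A 3' assay that captures RNA through poly(A) therefore counts these transcripts only in part, and the share captured may differ between genes.

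The samples were 4 droplet libraries of mouse bone marrow, 1 per group, each pooled from 3 mice killed 112 days after transplantation. Marrow of 8-week-old donors, either wild type or lacking Gli1, which encodes a zinc finger factor of hedgehog signalling, had been transduced by retrovirus with JAK2V617F, an activated kinase found in myeloproliferative neoplasms, or with JAK2WT as its control. It was given to female B6.SJL mice aged 8 to 10 weeks that had received 10.5 Gy of irradiation. Every library came from marrow depleted of CD11b, GR1, TER119, B220 and CD3 cells and sorted for viable GFP-positive and GFP-negative cells, so it holds transduced cells, untransduced donor cells and remaining recipient cells in unknown proportion. Values in fours below are in 1 order: the 2 wild type libraries, JAK2WT before JAK2V617F, then the 2 Gli1 knockout libraries in the same way.

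In that order 7987, 3602, 3999 and 6490 cells were kept, with a median of 4187, 13150, 17277 and 13785 UMIs (unique molecular identifiers, 1 per captured molecule). Pairs of libraries shared between 5 and 18 kept barcodes. Both wild type libraries held 38864 or more UMIs of Xist and 1 UMI each of 4 Y-linked genes, whereas the knockout libraries held 338 to 1109 UMIs of Xist and 9667 to 13015 of the Y-linked genes. Donor sex and Gli1 genotype therefore cannot be told apart in any comparison of genotypes. With 1 library per group there was no replicate and no test. Intervals are exact 95% Poisson intervals and cover counting error only.

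The stem-loop that ends a replication-dependent histone mRNA was found in the annotated transcripts of 45 members, in 8 forms. It is shown for 5 members on which the results turn, with the paired stem in capitals and the loop in lower case.
Hist1h2ap: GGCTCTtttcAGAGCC
Hist2h2ac: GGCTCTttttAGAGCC
Hist1h3c: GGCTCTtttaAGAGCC
Hist1h4d: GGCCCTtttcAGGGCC
Hist1h4i: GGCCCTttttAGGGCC
The form of Hist1h2ap was the most frequent, with 25 members, and that of Hist2h2ac was found in that gene alone. These stem-loops lie on GRCm38 at chr13:21833029-21833044 (minus strand), chr3:96220418-96220433 (minus), chr13:23745047-23745062 (minus), chr13:23581950-23581965 (plus) and chr13:22040966-22040981 (minus). In 22 members the annotated transcript ended within 100 bases of the stem-loop, and in 23 it ran further, up to 4884 bases in Hist1h1d. Those 23 members held 40.1% of all histone UMIs and the 22 held 26.8%. No stem-loop of the searched form was found in the other 22, which held 33.1%, most of it in Hist1h1b. Some of their annotated transcripts are short, such as 312 bases in Hist1h4k and 411 in Hist1h3i. A stem-loop past the annotated end could not be found.

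Many members are near-identical copies, and a read that fits several genes equally is usually not counted for any. Every stretch of 91 bases in the last 500 transcribed bases of each member was compared with the transcripts of all other genes. Where the annotated transcript is shorter than 500 bases, all of it was compared, coding part included, which may raise the share. In 31 members 50% or more of these stretches were also found in another gene, in 19 some were, and in 17 none was. With stretches of 50 bases, as the read length is not known, these numbers were 40, 13 and 14. The 31 members held 34.1% of the histone UMIs and the 17 held 40.6%. Among the linker genes, Hist1h1b, Hist1h1a, Hist1h1c and Hist1h1d shared no stretch. Hist1h1e shared 99.02%, with Hist1h2be, whose annotated gene overlaps it, and with Gm11398. Hist1h2ap shared 92.3%, with Hist1h2ao and other H2A genes, so its UMIs may include or lack those of its copies. Hist1h2bq and Hist2h2aa2, each with a copy that shares its 3' end, had 0 and 3 UMIs in all libraries together. Hist1h2ba also had no UMI.

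The histone genes were unevenly counted. Of the 67 members, 11 reached 50 CPM (UMIs per 1000000 UMIs of the library) in at least 1 library, 24 had their highest value between 10 and 50 CPM, 21 between 1 and 10 CPM, and 11 stayed under 1 CPM everywhere. The 4 highest members held 58.0%, 60.1%, 61.1% and 63.2% of the histone UMIs in the 4 libraries. These were Hist1h1b, the H1.5 linker gene, Hist1h2ap and Hist1h2ae, which encode H2A, and Hist1h1e, the H1.4 linker gene. Because a UMI counts a molecule once, values do not scale with gene length, but the order below is of counted molecules and not of transcription.

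Linker genes were led by Hist1h1b, at 687, 691, 582 and 491 CPM. Hist1h1e had 342, 334, 233 and 199 CPM. Both knockout libraries were below both wild type libraries for each of these. Hist1h1a, the H1.1 gene, had 129.9, 135, 100.2 and 81.1 CPM, and Hist1h1d, the H1.3 gene, had 71.8, 84.6, 54.8 and 48.2 CPM, in the same order of genotypes. Hist1h1c, the H1.2 gene, had 64.4, 82.9, 61.4 and 49.1 CPM, so that its lowest wild type and highest knockout library were close. The sixth linker gene, Hist1h1t, known from the testis, stayed under 1 CPM. Summed, the linker genes reached 1296, 1327, 1031 and 868 CPM.

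Among the core genes, H2A was the most counted class, with 1109, 1127, 689 and 843 CPM. Hist1h2ae had 435, 393, 279 and 300 CPM. For Hist1h2ap the values were 391, 470, 272 and 409 CPM, and here the knockout library with JAK2V617F exceeded the wild type library with JAK2WT. Hist2h2ac, an H2A gene of the chromosome 3 cluster, had 109.6, 129, 17.04 and 17.8 CPM, a gap between genotypes far wider than that of any other member at this level. H4 genes summed to 288, 242, 204 and 186 CPM, led by Hist1h4d (163, 104, 106 and 86.2 CPM) and Hist1h4i (54.8, 82.8, 46.9 and 53.5 CPM). H3 genes summed to 267, 236, 159 and 158 CPM, led by Hist1h3c at 123, 106, 66.7 and 59.2 CPM. The 18 H2B genes together gave only 239, 209, 154 and 158 CPM, and none reached 50 CPM.

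All members together had 3199, 3141, 2237 and 2214 CPM, so both knockout libraries stood below both wild type libraries. Their intervals were 3185 to 3213, 3126 to 3156, 2226 to 2247 and 2205 to 2223 CPM. The S phase list, 32 replication genes without histones such as Pcna and the Mcm helicase subunits, did not follow that order, with 3425, 4659, 3271 and 3820 CPM. The G2 and M phase list had 3688, 3968, 3390 and 2695 CPM. Of the 35 members at 10 CPM or more in some library, 27 were lower in both knockout libraries than in both wild type libraries, and none was higher. Among all 8546 genes at that level the share lower was 18.1% and the share higher was 13.7%. A member that passed the minimum only where it is high could more easily enter this count, so it is a description. Over all 67 members the counts were 41 lower and 3 higher. The share over all genes without a minimum was not taken, so these counts have no background beside them. They include members of very few UMIs, such as Hist1h1t with 14, 11, 8 and 1. The counts of 41 and 3 were the same without unnamed clusters 8 and 10, cells of few UMIs that came mostly from 1 library each. The summed values were then 3283, 3141, 2248 and 2216 CPM.

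**Figure D1:**
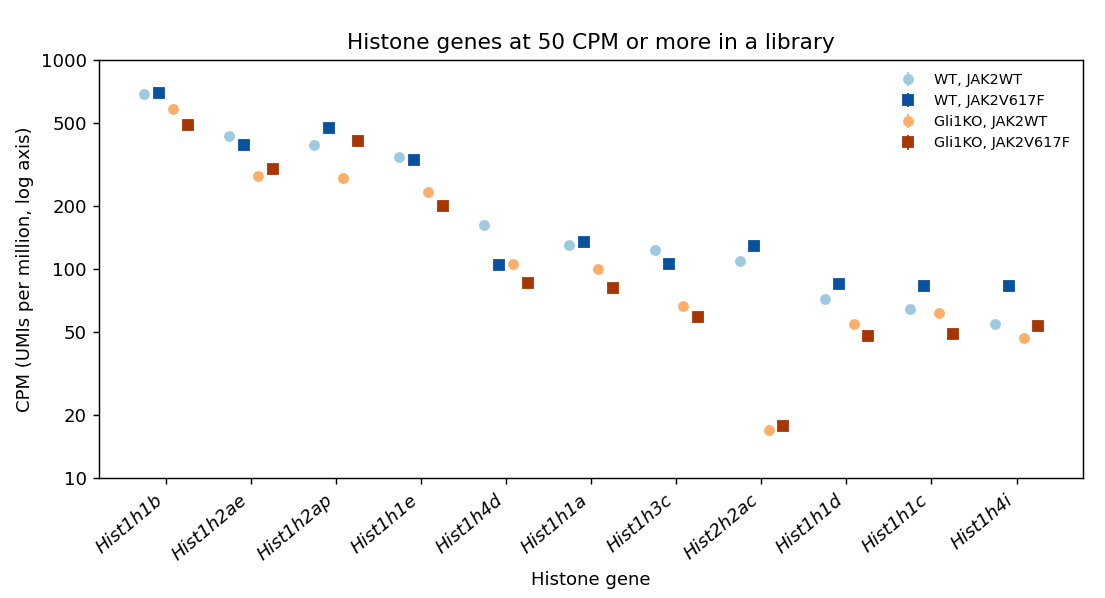
Level of the 11 histone genes at 50 CPM or more in a library (horizontal axis) in CPM on a log axis, with 1 point per library and exact 95% Poisson intervals. Blue marks the wild type and orange the Gli1 knockout libraries, and Hist2h2ac shows the widest gap, from 109.6 and 129 CPM down to 17.04 and 17.8 CPM.

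Cell classes were compared next, to show where in the marrow the genes were counted. Clusters were built without the 67 genes and named by markers, so a name means resemblance by those markers only. Levels are given for the 57 pairs of a class or unnamed cluster and a library with 50 or more cells. Summed linker levels ran from 131 to 2113 CPM with a median of 966 CPM, and summed core levels from 163 to 3502 CPM with a median of 1399 CPM. The linker genes took 33.9% to 49.4% of the histone UMIs, with a median of 41.1%, a narrow range beside that of the levels.

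Cluster 17, unnamed and led by Pf4, Cenpf and other mitotic genes, had the highest core levels, with 3502, 3491, 2283 and 3338 CPM. Its G2 and M list was also the highest of any cluster, at 8409 to 9298 CPM, while its S phase list was only 2616 to 2860 CPM. B lineage cells had 2865 CPM of core and 2001 CPM of linker genes in the wild type library with JAK2WT. Conventional dendritic cells had 1890, 2112 and 1908 CPM of linker genes in the 3 libraries that held enough of them. Erythroid cells had core levels of 2541, 2359, 1291 and 1890 CPM, with the knockout libraries resting on 52 and 63 cells. At the other end, plasma cells, which secrete antibody and rarely divide, had 277, 131 and 161 CPM of linker and 409, 163 and 239 CPM of core genes. Free RNA from other cells was not measured and could give part of such low values.

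Neutrophil-like cells had 1610, 1029 and 692 CPM of linker genes in the 3 libraries with enough cells, the order of their S phase list (2373, 1670 and 1357 CPM). T cells differed widely, with 1962, 414 and 1724 CPM of core genes in 1376, 58 and 74 cells. Their G2 and M list moved likewise, at 4631, 724 and 5064 CPM. Mesenchymal stromal cells had 908 CPM of core genes in the wild type library with JAK2V617F and 500 CPM in the knockout library with JAK2WT.

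Within each histone class 1 or 2 genes led in nearly every cell class. Hist1h1b was the highest linker gene in 56 of 57 pairs, from 44.2 CPM in plasma cells of the knockout library with JAK2WT to 1247 CPM in its conventional dendritic cells. Hist1h3c led H3 in 55 pairs and Hist1h4d led H4 in 54. For H2A the lead was divided, with Hist1h2ap highest in 32 pairs and Hist1h2ae in 25. H2B was led by Hist1h2bc in 37 pairs and by Hist2h2bb in 12. Hist1h2bc stood at 145 and 78.5 CPM in mesenchymal stromal cells, at 76.0 CPM (30 UMIs) in T cells of the knockout library with JAK2V617F and at 49.1 to 59.6 CPM in HSC/MPP cells (stem and multipotent progenitors), against 24.0 to 39.7 CPM in cluster 17.

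**Figure D2:**
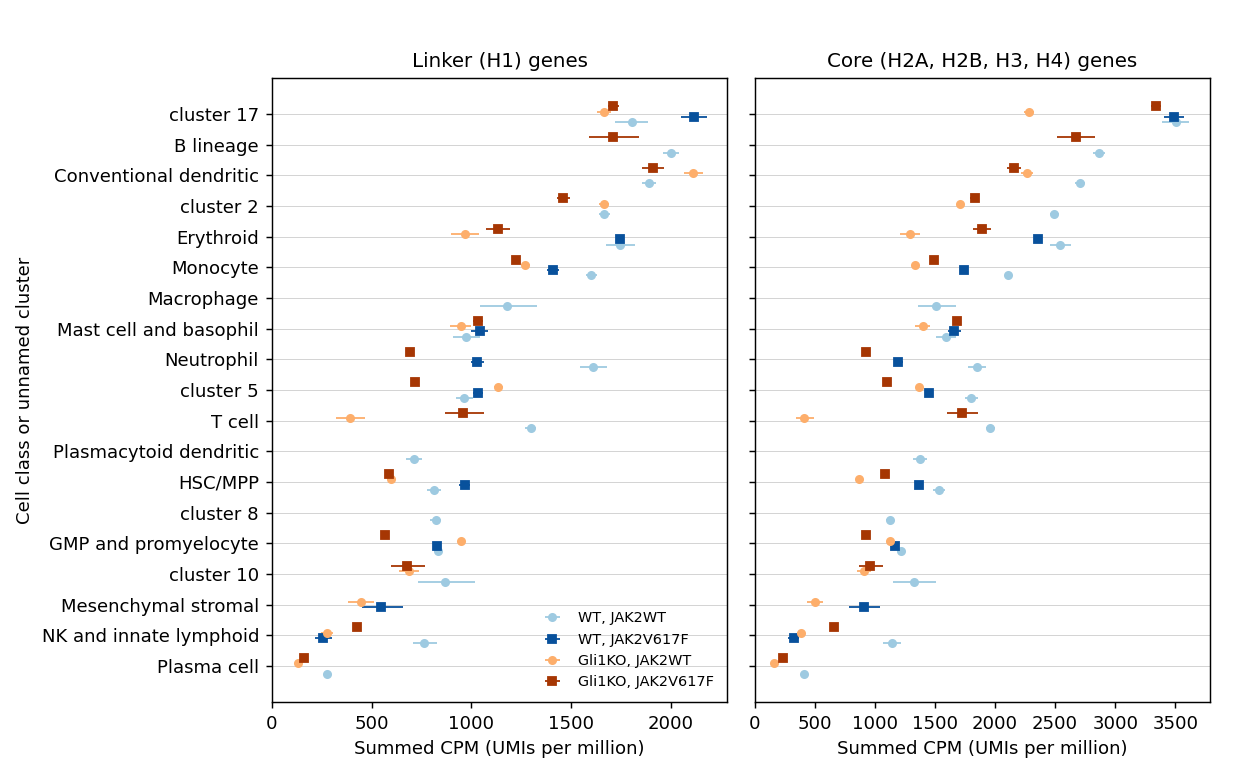
Summed CPM of linker genes (left) and core genes (right) in each cell class or unnamed cluster (vertical axis), with 1 point per library of at least 50 cells and exact 95% Poisson intervals. Cluster 17, B lineage and conventional dendritic cells lie highest and plasma cells lowest, and in HSC/MPP cells both knockout libraries lie below both wild type libraries.

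To relate the members to replication at equal depth, each cell was thinned to 2000 UMIs and grouped by its number of S phase list UMIs. Cells below that depth, 25.4%, 6.89%, 18.9% and 7.75% of the libraries, were left out. The histone level rose with every step of the S phase count in every library. In cells with no S phase UMI it was 849, 629, 404 and 615 CPM, and in cells with over 10 it was 4666, 4127, 2742 and 2598 CPM. The ratios between these groups were 5.50, 6.56, 6.78 and 4.22. Before thinning the same groups had 743, 792, 312 and 536 CPM and 4859, 4124, 2894 and 2856 CPM.

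Within a group of S phase counts the libraries did not have the same histone level, but the order of genotypes did not hold in every group. In cells with 1 to 2 S phase UMIs the values were 1351, 1166, 1100 and 1028 CPM. In those with 3 to 5 they were 2141, 2001, 2188 and 1422 CPM, so the genotypes overlapped. In cells with 6 to 10 they were 3329, 2868, 2483 and 2100 CPM. The gap was wider in cells with over 10, a group with no upper limit. In the latter cells the intervals of the wild type libraries were 4578 to 4756 and 4046 to 4209 CPM, above those of the knockout libraries, 2653 to 2834 and 2537 to 2661 CPM. The G2 and M list moved with this order, at 4466, 4981, 2934 and 2387 CPM in the cells with over 10. Its part in the difference, and that of the unlike cell makeup of the libraries, was not tested. The linker share of histone UMIs was higher in the cells with over 10 S phase UMIs than in those with none, at 38.1% and 43.3%, 39.1% and 43.2%, 38.3% and 47.3%, and 34.7% and 40.1%. With cells thinned to 4000 UMIs it was lower in wild type with JAK2V617F, at 50% (102 histone UMIs in 79 cells) and 42.4%, and still higher in the other libraries.

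**Figure D3:**
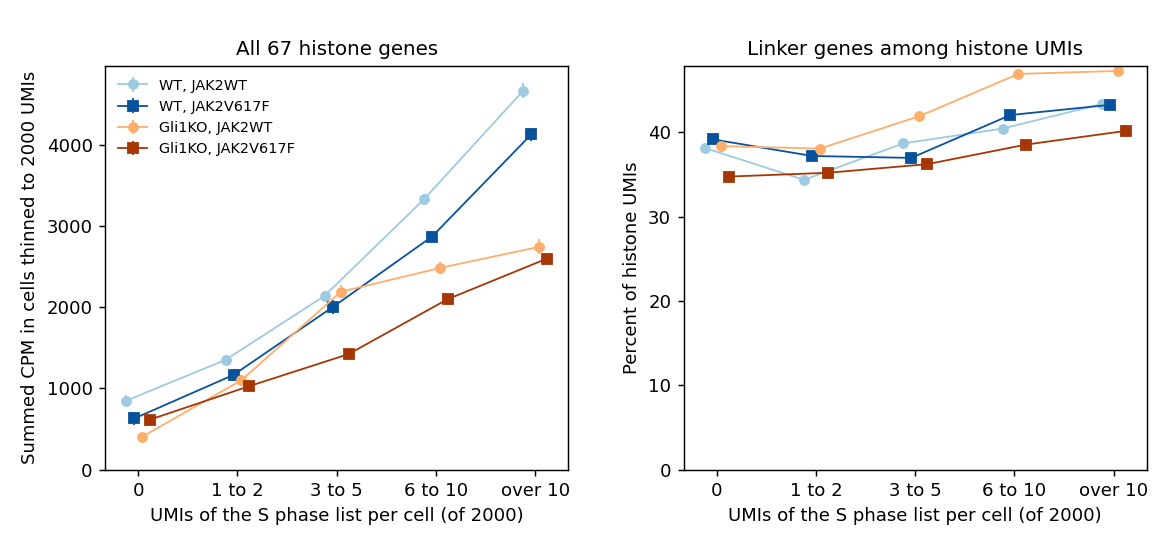
Summed histone CPM (left) and linker share of histone UMIs in percent (right) in cells thinned to 2000 UMIs, against the number of S phase list UMIs per cell. Lines join the 5 groups of a library and bars on the left are exact 95% Poisson intervals. The wild type libraries reach 4666 and 4127 CPM in cells with over 10 S phase UMIs, the knockout libraries 2742 and 2598 CPM.

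Single members differed in how closely they followed S phase. Among 55 members with 30 or more thinned UMIs, 51 had UMIs in cells with no S phase UMI and so a ratio between the highest and the lowest group, averaged over the libraries. The median ratio was 4.39, and 41 members were above 1 in all 4 libraries. Hist1h3i had the highest, 15.5 (interval 6.66 to 36.3), from 6 and 290 UMIs. Hist1h1b followed with 11.9 (10.3 to 13.7), rising from 70.7 to 840 CPM, and Hist1h1a with 10.999 (8.08 to 14.97). The H2B genes Hist1h2bn and Hist1h2bm had 9.59 (4.50 to 20.4) and 9.53 (4.78 to 19.004).

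A few members were counted about as much or more in cells with no S phase UMI. These groups pool all cell classes, and the part of cell makeup was not tested. Cells with no S phase UMI still had 1519, 1046, 703 and 796 CPM of the G2 and M list. Hist1h2bc fell from 36.5 CPM in cells with no S phase UMI to 23.8 CPM in those with over 10, a ratio of 0.65 (0.51 to 0.83), and was below 1 in 3 of 4 libraries. Hist2h3c1 had a ratio of 0.29 (0.10 to 0.91), from only 6 and 7 UMIs. Hist2h4 at 0.75 (0.38 to 1.46), Hist3h2a at 0.79 (0.48 to 1.30) and Hist1h4n at 1.23 (0.34 to 4.52) had intervals that include 1. Of the linker genes, Hist1h1c had a ratio of 1.45 (1.19 to 1.76), against 11.9 for Hist1h1b. Hist1h2bc is one of the members whose annotated transcript has 2 exons and in which no stem-loop of the searched form was found. No stem-loop was found in Hist1h3i, Hist1h1b, Hist1h1a and Hist1h2bn, with high ratios, either, though Hist1h2bm holds it. Hist2h3c1, Hist2h4, Hist3h2a and Hist1h4n, with low ratios, hold it too. The annotated transcripts of Hist1h3i, Hist1h1b, Hist1h1a and Hist1h2bn are only 411, 743, 741 and 381 bases long. A stem-loop past their ends would be missed, so whether the ratios go with this trait cannot be read here.

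The 4 comparisons were made on CPM standardised to the same mix of the 4 classes that had 100 or more cells in every library. These were GMP and promyelocyte (granulocyte precursors), HSC/MPP, monocyte, and NK and innate lymphoid cells, weighted 26.3%, 35.3%, 19.5% and 19.01%. A member was measured where it reached 10 CPM in either library. The log2 ratio was taken after adding 10 CPM to both values, and a call needed 1.5-fold. Each library enters 2 of the comparisons, so they are not independent of each other.

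The comparison of JAK2V617F with JAK2WT in wild type marrow asks what the oncogenic kinase changed. The summed histone level was 2070 CPM with JAK2V617F and 2451 CPM with JAK2WT, a log2 ratio of -0.24 (-0.27 to -0.22). Of 31 measured members, 1 was called lower and none higher. Over all 8341 measured genes 2.96% were called lower and 4.36% higher, so the share called lower among the histones (3.23%) was near the background. The called gene was Hist1h4d, at 80.5 against 129 CPM (log2 ratio -0.62). Next were Hist1h3c at -0.57 and Hist2h2aa1 at -0.47, and the highest values were 0.12 for Hist1h1c, 0.06 for Hist1h4i and -0.01 for Hist1h2ap. The median over measured members was -0.22, with 29 below 0, against 0.05 over all genes. Most of the summed difference came from 1 class. The log2 ratios were -0.04 in GMP and promyelocytes, -0.01 in HSC/MPP cells and -0.24 for monocytes, but -1.71 for NK and innate lymphoid cells, and without that class the summed value was -0.09.

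In Gli1 knockout marrow the same contrast gave summed levels of 1716 and 1694 CPM, a log2 ratio of 0.02 (0.00 to 0.04). None of 26 measured members was called in either direction, beside 0.344% lower and 0.27% higher over all 8145 measured genes. The highest was Hist1h2ap, at 311 CPM with JAK2V617F and 209 CPM with JAK2WT, a log2 ratio of 0.55 that was above 0 in all 4 classes. Hist1h2an at 0.27 and Hist1h2bc at 0.21 came next. The lowest were Hist3h2a at -0.33, Hist1h1c at -0.26 and Hist1h2ac at -0.24. The 5 measured linker genes all lay below 0, with a summed log2 ratio of -0.17 (-0.20 to -0.15), while the core genes summed to 0.16 (0.14 to 0.18). Nearly all of the core difference was Hist1h2ap, which shares most of its stretches with copies. Without it the core genes summed to 731 and 725 CPM, a log2 ratio of 0.01, and without the 31 members that share 50% or more of their stretches the log2 ratio of the histone sums was -0.08. In GMP and promyelocytes the linker genes stood at 567 against 946 CPM.

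The comparison of knockout with wild type under JAK2V617F asks how the diseased marrow differed between donor genotypes. It cannot show what the loss of Gli1 changed, as donor sex goes with genotype and each group has 1 library. The summed histone level was 1716 CPM in the knockout and 2070 CPM in the wild type, a log2 ratio of -0.27 (-0.29 to -0.25). Of 26 measured members, 1 was called lower and none higher, with 0.655% and 0.47% over all 8092 measured genes. It was Hist2h2ac, at 14.5 against 79.7 CPM (log2 ratio -1.88). Hist1h3c at -0.49 and Hist1h1a at -0.42 followed, and the highest were Hist1h2bc at 0.27, Hist2h2aa1 at 0.14 and Hist1h2af at 0.14. The linker genes had -0.39 and the core genes -0.19. HSC/MPP cells had -0.48, GMP and promyelocytes -0.42 and monocytes -0.21, whereas NK and innate lymphoid cells had 0.90.

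Under JAK2WT the knockout library had 1694 CPM and the wild type library 2451 CPM, a log2 ratio of -0.53 (-0.55 to -0.51). Of 32 measured members, 4 were called lower and none higher, beside 1.12% lower and 1.68% higher over all 8329 measured genes. The 4 genes were Hist2h2ac (12.6 against 92.1 CPM, -2.17), Hist1h3c (46.6 against 97.01 CPM, -0.92), Hist1h4d (73.3 against 129 CPM, -0.74) and Hist1h2ae (208 against 325 CPM, -0.62). The highest were Hist3h2a at 0.31, Hist1h1c at -0.02 and Hist1h2ac at -0.13. The median over measured members was -0.41, with 31 of 32 below 0, against 0.04 over all genes. Core genes had -0.67 and linker genes -0.34. The log2 ratios were -0.68 in HSC/MPP cells, -0.51 for monocytes and -1.53 for NK and innate lymphoid cells, but 0.01 in GMP and promyelocytes.

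**Figure D4:**
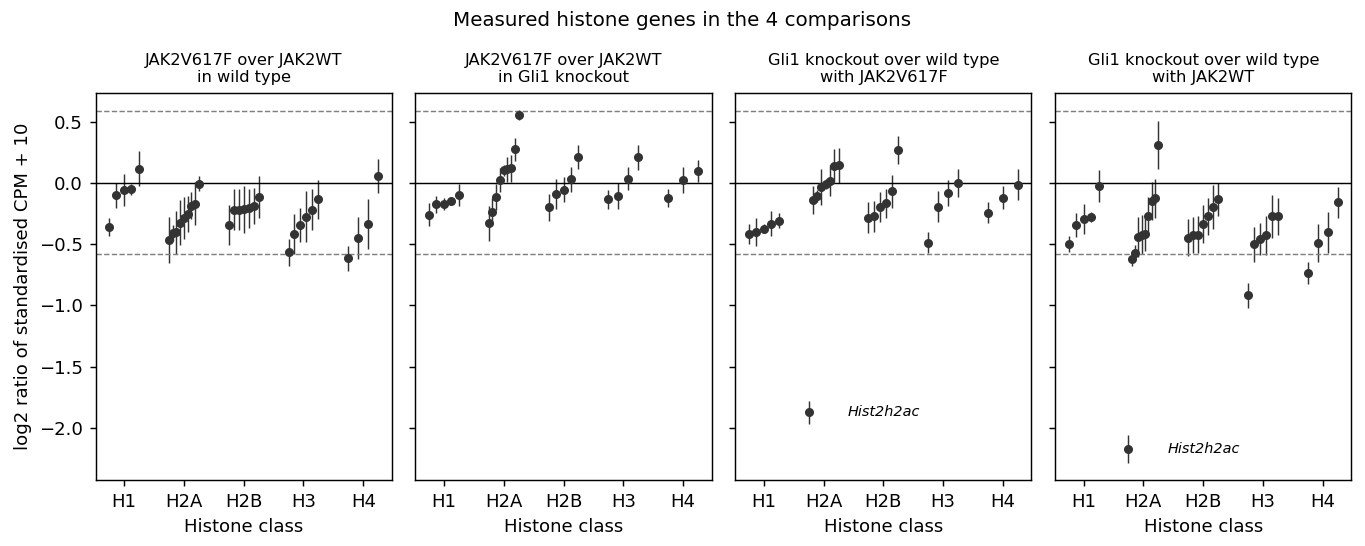
Log2 ratio of standardised CPM after adding 10 CPM (vertical axis) for each measured histone gene, by histone class, in the 4 comparisons, with 95% counting intervals and dashed lines at 1.5-fold. Hist2h2ac lies at -1.88 and -2.17 in the comparisons of genotypes, and the other measured genes lie between -0.92 and 0.55.

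Stem and multipotent progenitors showed the genotype order in most members at 10 CPM or more, in a class made of a single cluster. Their histone genes summed to 2346, 2333, 1464 and 1669 CPM, with intervals of 2287 to 2406, 2289 to 2377, 1436 to 1493 and 1654 to 1684 CPM. The S phase list of the same cells was 4004, 4468, 4085 and 4165 CPM and the G2 and M list 1765, 1727, 1537 and 1564 CPM, both much closer between genotypes. Of 35 members at 10 CPM or more in this class, 27 were lower in both knockout than in both wild type libraries, beside 13.7% of 8555 genes. In monocytes the count was 25 of 35, beside 8.21%, and the sums were 3712, 3149, 2609 and 2717 CPM. Monocyte cluster 4, which has the higher histone level of its 2 clusters, took 28.1% of that class in the wild type library with JAK2WT and 6.20% to 9.5% in the others. In its cluster 3 alone the sums were 3225, 3122, 2564 and 2625 CPM, the same order of genotypes. GMP and promyelocytes had 6 of 29 lower, beside 9.89%, and NK and innate lymphoid cells 6 of 30, beside 15%. A member that passed the minimum only where it is high could more easily enter these counts too, so they are descriptions. GMP and promyelocytes did not show the order, with 2051, 1996, 2072 and 1497 CPM.

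Genes that serve histone supply had few calls. Of 17 measured genes for histone mRNA transcription and 3' end processing, such as Slbp, which binds the stem-loop, and Npat, which drives the promoters, none was called in the genotype comparison under JAK2WT (median log2 ratio -0.06). Under JAK2V617F none of 16 was called (-0.04). The 18 measured genes for histone chaperones and acetylation had medians of 0.18 and -0.02 with no call, and the single-copy histone genes outside the clusters 0.13 and 0.09 with no call among 10 and 11. With JAK2V617F over JAK2WT in wild type marrow, the chaperone and acetylation list had a median of 0.32 with no call among 18. The single-copy histone genes had a median of 0.01 there, and 1 of 11 was called higher, H2afy2 at 0.69. In that comparison 1 of 17 processing genes was called, Pou2f1 at -0.62, which encodes a factor that binds the octamer motif. The S phase list had medians of 0.12 and -0.02 in the genotype comparisons, with no call among 31.

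Hist2h2ac was the single member called in both comparisons of genotypes. It encodes an H2A protein and lies at chr3:96220361-96220880 on the minus strand, as 1 exon. Its raw counts were 6935, 7109, 1325 and 1954 UMIs. Ranked by the smaller of its decreases in knockout under the 2 transductions, it was first of 8492 genes measured, with Xist and Tsix left out. That ranking was chosen after its value had been seen. In 16 classes or clusters with both genotypes, all 16 had every wild type library above every knockout library. These classes are parts of the same 4 libraries and not separate samples. Some had 1 library on a side, such as B lineage cells with 1 of each genotype. The share of all genes with such an order was not taken. Erythroid cells had 212 and 189 CPM in wild type and 22.9 and 46.5 CPM in knockout, HSC/MPP cells 81.1 and 76.3 against 8.97 and 10.9 CPM, and monocytes 143 and 139 against 20.4 and 27.3 CPM. Values in knockout also differed between cell classes, from 2.68 CPM (5 UMIs) in plasma cells to 50.6 CPM (20 UMIs) in T cells, both with JAK2V617F. T cells of the knockout library with JAK2WT had only 10.3 CPM (3 UMIs). Its log2 ratios of JAK2V617F to JAK2WT were -0.19 in wild type and 0.11 in knockout. It was 9.88% and 11.5% of H2A UMIs in wild type and 2.48% and 2.11% in knockout, and without it the H2A genes still summed to 999, 998, 671 and 826 CPM.

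**Figure D5:**
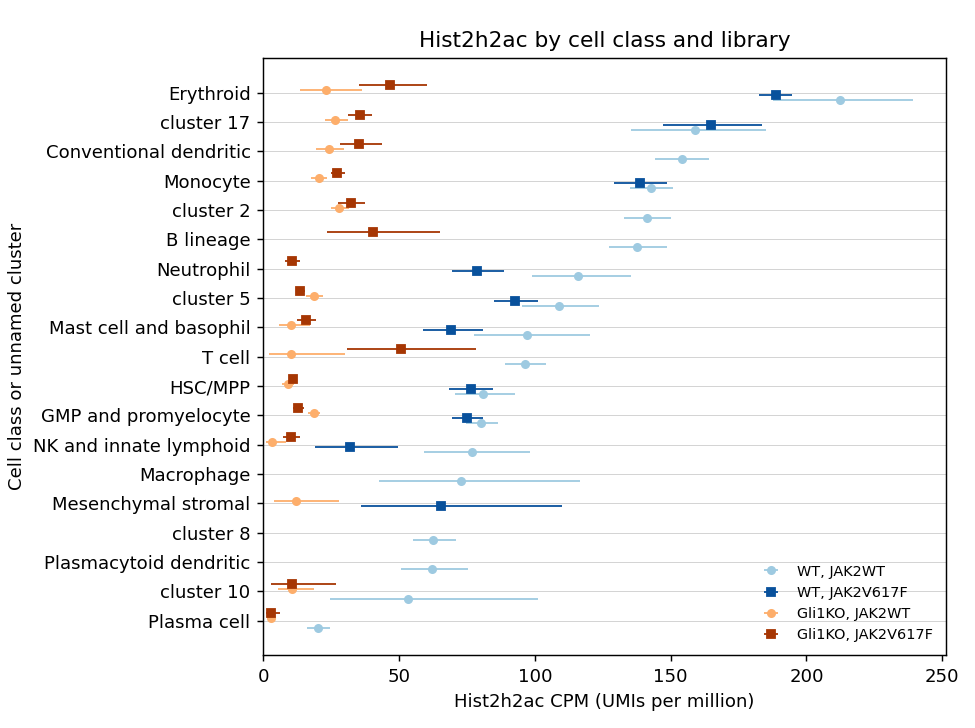
Hist2h2ac in CPM (horizontal axis) by cell class or unnamed cluster, with 1 point per library of at least 50 cells and exact 95% Poisson intervals. Wild type libraries (blue) lie above knockout libraries (orange) in each of the 16 classes that have both, for example at 81.1 and 76.3 against 8.97 and 10.9 CPM in HSC/MPP cells.

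Of the 91-base stretches of Hist2h2ac, 25.1% were shared with other genes. Only the 5 genes sharing most of them were listed, of which 3 are in the tables, so further copies may exist. With stretches of 50 bases the share was 57.4%. Hist2h2aa1 had 19.5, 11.7, 11.7 and 12.7 CPM. Gm20632 had 80, 51, 56 and 73 UMIs, and Gm20633 had 85, 38, 88 and 110 UMIs. These counts are not scaled to the unequal totals of the libraries. The part of shared reads in the Hist2h2ac difference was not tested. Hist2h2be, an H2B gene that starts 239 bases away in the opposite direction, had 5.29, 4.69, 2.46 and 2.46 CPM, also lower in both knockout libraries, from 335, 258, 191 and 270 UMIs. Other chromosome 3 members differed less. Hist2h2bb had 30.8, 26.8, 20.1 and 17.3 CPM, lower in both knockout libraries, while for Hist2h4 the genotypes overlapped at 4.28, 2.36, 3.36 and 2.78 CPM.

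The stretch between Hist2h2ac and Hist2h2be is shown because both genes are transcribed from it. It was cut from the promoter sequence of Hist2h2ac in RefSeq (GRCm38.p6), is 238 bases long and lies at chr3:96220881-96221118. It is read on the minus strand towards Hist2h2ac, with motifs in capitals.
Hist2h2be to Hist2h2ac: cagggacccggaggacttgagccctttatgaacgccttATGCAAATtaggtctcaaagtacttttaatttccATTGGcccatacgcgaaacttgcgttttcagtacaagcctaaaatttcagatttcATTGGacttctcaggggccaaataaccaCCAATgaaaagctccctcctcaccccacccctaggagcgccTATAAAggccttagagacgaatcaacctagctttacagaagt
It holds 1 TATAAA on this strand, 42 bases before the start of Hist2h2ac. There are 3 matches to CCAAT, of which 2 lie on the other strand. There is 1 match to the octamer, ATTTGCAT, which also lies on the other strand. Over the 250 bases before the start, these motifs on either strand occurred in 12.4%, 33.8% and 1.60% of 32851 promoters of all genes. Among 62 members matched to that table, CCAAT was present in 6 of 6 H1, 18 of 18 H2A, 16 of 16 H2B, 8 of 10 H3 and 3 of 12 H4 genes. The octamer was present in 7 H2A and 6 H2B genes and in no H1, H3 or H4 gene. AAACACA, found in 6.25% of all promoters, was present in 5 of 6 H1, 2 of 18 H2A and 2 of 16 H2B genes and in no H3 or H4 gene. Where an H2A and an H2B gene start close together in opposite directions, a match between them can be counted for both classes. The octamer between Hist1h2ae and Hist1h2bg, whose starts lie 176 bases apart, is such a match. A match is a description of letters only.

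The linker gene Hist1h1b, the most counted member, holds matches to 3 of these motifs, all but the octamer, in the 150 bases before its start (chr13:21780626-21780775, minus strand), shown with the matches in capitals.
Hist1h1b: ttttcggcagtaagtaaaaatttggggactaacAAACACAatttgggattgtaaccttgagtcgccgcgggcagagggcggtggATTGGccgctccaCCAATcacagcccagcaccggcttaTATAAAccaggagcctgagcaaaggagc

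H2A and H2B genes lie head to head in 12 pairs, and the members of a pair were not counted alike. The H2A gene had more UMIs in 8 pairs and the H2B gene in 4. In 1 of the 8, Hist1h2aa and Hist1h2ba, the counts were only 3 and 0 UMIs. Hist1h2ap had 116630 UMIs over the 4 libraries and its partner Hist1h2br 2626, and Hist1h2ae had 103787 against 2068 for Hist1h2bg. In the opposite sense Hist1h2bj had 6884 against 1437 for Hist1h2ag, and Hist1h2bc 11583 against 5290 for Hist1h2ac. Hist1h2br shares all of its 3' stretches with a copy, so its count may be too low. The transcript of Hist1h2ap holds a run of 12 adenines, against a median longest run of 4 over the 67 members, and 7 members had a run of 8 or more. Whether such runs bear on capture was not tested.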

How the data were processed

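The 4 mRNA libraries were 10x 3' single-cell libraries. The authors deposited them as raw count matrices of UMIs per gene and cell barcode, made with Cell Ranger 4.0.0 on mm10, with Seurat 4.0.4 also named, per the submitters' processing notes. The 4 hashtag libraries were not analysed here, so the 3 mice of a library could not be separated, and p-values were not computed.

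Cells with at least 500 genes, 1000 UMIs and under 10% mitochondrial UMIs were kept, 22078 in all. Clusters (scanpy 1.11.5, Leiden resolution 1, 2000 variable genes, 30 components) were made without the histone genes. Of 30 clusters 24 were named from marker lists, by a scoring rule set after the clusters had been seen. Doublets were scored but kept. Levels are UMIs per 1000000 with exact Poisson intervals. Comparisons used 4 classes with at least 100 cells in every library, 10 CPM added and 1.5-fold for a call. The calculation was tested on simulated data.

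Named in each comparison are the called members and the 3 highest and 3 lowest, and for S phase the 5 at either end. Members and lists were chosen with earlier results of these data known. Transcript stretches came from GENCODE M21 transcripts, the planned use of the genome was not made, and 91 bases was assumed because the read length is not given in the sources used here. Promoters are from RefSeq (GRCm38.p6). The alternatives for NK and innate lymphoid cells, the core sum without Hist1h2ap and the values without clusters 8 and 10 were chosen after seeing the data.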

Additional observations from a re-analysis of the deposited data

Results flagged for a closer look

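In NK and innate lymphoid cells the summed histone level went opposite ways in the paired comparisons, and each difference rests on 1 library a group and was not tested. The log2 ratio of JAK2V617F to JAK2WT was -1.71 in wild type and 0.7152 in Gli1 knockout marrow, and that of knockout to wild type was 0.8959 with JAK2V617F and -1.529 with JAK2WT. The levels behind them were 1905, 582, 660 and 1083 CPM in 254, 224, 234 and 860 cells. With doublets removed they were 1528, 579, 484 and 806 CPM, and the ratios -1.40, 0.74, 0.48 and -1.66 kept their signs. The 10% of cells with the most histone UMIs held 63.6%, 40.3%, 49.6% and 61.4% of them, and 50.7%, 38.9%, 25.4% and 41.6% with doublets removed. In cluster 23 of this class, marked by Ncr1, the level was 3588, 575, 663 and 1269 CPM, and in cluster 0, marked by Gata3 and Il7r, it was 1221, 524, 774 and 821 CPM. The third cluster, 14, had another order, with 947, 732, 452 and 1363 CPM. The part of this unlike makeup in the ratios was not tested.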

How the results depend on the processing

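Of 202 alternative values for the comparisons and levels, 132 stayed close and 70 moved. The cause of the moves was not tested. A reversal was looked for only in Hist2h2ac, and the other called genes were not followed singly. Summed log2 ratios are given in the order JAK2V617F over JAK2WT in wild type, the same in knockout, knockout over wild type with JAK2V617F, and the same with JAK2WT. Where values moved, they were -0.1969 (the first) and -0.3128 (the third) with doublets removed, -0.03891, -0.1084, -0.3294 and -0.26 clustered without cell cycle genes, and -0.09632, -0.334 and -0.4411 (all but the second) at resolution 0.5. Sums over all kept cells gave -0.02619, -0.01481 and -0.5047 (the first to the third), and totals without mitochondrial, ribosomal, haemoglobin and histone UMIs -0.2933 and -0.01088 (the first and the second). Without GMP and promyelocytes they were -0.3091, 0.2007, -0.221 and -0.7308, without HSC/MPP -0.401, -0.04919, -0.1307 and -0.4825, without NK and innate lymphoid cells -0.09147, -0.05271, -0.3763 and -0.415, and without monocytes -0.005398 and -0.294 (the second and the third). Stricter cell filters gave 0.002397 (the second), and leaving out members that share 50% or more of their stretches -0.07862 and -0.3454 (the second and the third). The second, near 0, thus changed sign under several settings. Members called lower in the first comparison (1 as reported) were 0 when clustered without cell cycle genes, at resolution 0.5, with 50 CPM added or without NK and innate lymphoid cells, 2 with the other totals or without GMP and promyelocytes, 5 without HSC/MPP and 7 with 1 CPM added. In the second 1 was lower with 1 CPM added and 1 higher without GMP and promyelocytes. In the third (1 as reported) 2 were lower under both other clusterings and without NK and innate lymphoid cells, and 6 over all kept cells. In the fourth (4 as reported) 2 were lower under both other clusterings and with 50 CPM added, 10 without GMP and promyelocytes, and 15 lower and 1 higher with 1 CPM added. Hist2h2ac kept its direction, from -2.39 to -1.01 with JAK2V617F and from -2.77 to -1.18 with JAK2WT over 12 alternatives. With doublets removed, linker and core CPM were 1286 and 1882 in wild type with JAK2WT, 1315 and 1803 in wild type with JAK2V617F, 875.8 and 1357 in knockout with JAK2V617F, and 349.7 and 499.4 as the mean for NK and innate lymphoid cells. With stricter filters they were 1336 and 1963, and 875.7 and 1356, in the first and the last library, 758.4 and 1238 as the mean for HSC/MPP, and 1390 for linker genes in monocytes. Thinned to 4000 UMIs, the S phase ratios were 8.621, 10.9, 9.423 and 5.345. No paired analysis was possible because each group has 1 library. Depth limits the low members and the classes near 50 cells.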

Other observations

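Hist2h2ac was also read in cells split by Xist and Y-linked UMIs, a split chosen after seeing the data. Mesenchymal stromal cells with at least 2 Xist UMIs and no Y-linked UMI had 8.86 CPM (1.83 to 25.9, 3 UMIs in 59 cells) in the knockout library with JAK2WT and 7.62 CPM (0.193 to 42.4, 1 UMI in 26 cells) in that with JAK2V617F. Stromal cells of the wild type library with JAK2V617F had 65.5 CPM (35.8 to 110, 14 UMIs in 54 cells). By the same Xist rule, cells of all classes had 8.28 CPM (3.33 to 17.05, 7 UMIs in 89 cells) in the knockout library with JAK2WT. With JAK2V617F they had 29.3 CPM (10.7 to 63.7, 6 UMIs in 37 cells). T cells by that rule had 69.0 CPM (22.4 to 161, 5 UMIs in 16 cells) in both knockout libraries together. Cells of all classes with at least 2 Y-linked UMIs and no Xist UMI had 19.4 CPM (18.2 to 20.5) and 19.8 CPM (18.8 to 20.8) in the knockout libraries.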
